A study of Mus musculus with 9 samples.

Results

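The genes described here are 10 feedback regulators, subunits and adhesion targets of the transcription factor NF-kB, read in mouse liver: Nfkbia, Tnfaip3, Nfkbiz, Birc3, Nfkb1, Nfkb2, Relb, Icam1, Vcam1 and Sele. They were chosen by name from a table of 21936 genes; all 10 were among the 12557 genes with enough reads to be tested. The mice were wild type and were injected intraperitoneally with NaCl, or with 25 mg/kg or 50 mg/kg of retrorsine, a pyrrolizidine alkaloid made by plants and toxic to the liver; their livers were taken 2 h later. Each of the 3 groups held 3 libraries of poly(A) RNA. The labels give no strain, sex or age, and they do not say that each library is a separate animal, so a p-value measures the spread between these libraries, which may be technical. Retrorsine was given to whole animals and the libraries hold bulk liver, in which fewer cells of a type and less RNA per cell cannot be told apart.

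NF-kB is a family of paired transcription factors that IkB proteins hold in the cytoplasm. Signals such as tumour necrosis factor, interleukin 1 and bacterial products activate the IKK kinases, which mark IkB for destruction and free the factors to enter the nucleus. Among the first genes they switch on are their own brakes, so the response is short, and on the vessel wall they switch on adhesion molecules that slow and hold leukocytes. In liver this is known from sinusoidal and vascular endothelium, Kupffer cells and hepatocytes alike.

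Promoters are shown for 5 of the genes. Of these, 4 hold matches to the kB consensus or to GGAANTTCC, which NF-kB is known to bind. Sele, the gene with the widest range of levels, holds a match to neither. The kB consensus searched was GGGRNWYYCC, where R is A or G, W is A or T, Y is C or T and N is any base. Other forms of the NF-kB site were not searched for. RefSeq promoter records on GRCm38.p6 (250 bases before to 50 bases after a start) were matched for 6 of the 10 genes, in 9 records; Nfkbiz, Relb, Nfkb1 and Vcam1 are named only. The windows are chr12:55492598-55492897 (minus strand) for Nfkbia, chr10:19015361-19015660 (minus) for Tnfaip3, chr19:46304487-46304786 (plus) for Nfkb2, chr9:21015690-21015989 (plus) for Icam1 and chr1:164047984-164048283 (plus) for Sele. Each is written from 5′ to 3′ on the strand of its gene, and capitals mark matches to the kB consensus or to GGAANTTCC on either strand.
Nfkbia: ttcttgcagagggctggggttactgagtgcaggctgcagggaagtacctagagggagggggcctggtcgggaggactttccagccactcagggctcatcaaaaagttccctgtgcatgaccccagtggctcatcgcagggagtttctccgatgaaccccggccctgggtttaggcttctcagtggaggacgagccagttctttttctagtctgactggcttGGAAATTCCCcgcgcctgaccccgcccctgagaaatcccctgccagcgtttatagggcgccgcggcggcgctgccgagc
Tnfaip3: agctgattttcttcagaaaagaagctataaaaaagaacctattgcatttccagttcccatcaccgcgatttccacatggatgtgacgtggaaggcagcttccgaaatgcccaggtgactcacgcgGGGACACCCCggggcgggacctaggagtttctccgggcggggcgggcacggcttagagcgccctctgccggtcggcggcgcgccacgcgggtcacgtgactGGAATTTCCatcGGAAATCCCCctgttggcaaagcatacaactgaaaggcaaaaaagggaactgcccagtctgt
Nfkb2: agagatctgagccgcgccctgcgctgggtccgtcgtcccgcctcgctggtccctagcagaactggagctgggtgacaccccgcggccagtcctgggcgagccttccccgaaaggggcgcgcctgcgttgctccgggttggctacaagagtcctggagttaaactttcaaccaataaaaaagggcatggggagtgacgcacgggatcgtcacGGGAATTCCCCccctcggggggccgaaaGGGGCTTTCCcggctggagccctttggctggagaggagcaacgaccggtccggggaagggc
Icam1: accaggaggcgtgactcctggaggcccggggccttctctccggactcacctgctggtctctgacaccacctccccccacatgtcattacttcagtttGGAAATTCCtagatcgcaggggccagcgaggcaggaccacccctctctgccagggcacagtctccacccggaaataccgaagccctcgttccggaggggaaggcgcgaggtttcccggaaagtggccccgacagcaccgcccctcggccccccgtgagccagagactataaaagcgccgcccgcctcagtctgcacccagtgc
Sele: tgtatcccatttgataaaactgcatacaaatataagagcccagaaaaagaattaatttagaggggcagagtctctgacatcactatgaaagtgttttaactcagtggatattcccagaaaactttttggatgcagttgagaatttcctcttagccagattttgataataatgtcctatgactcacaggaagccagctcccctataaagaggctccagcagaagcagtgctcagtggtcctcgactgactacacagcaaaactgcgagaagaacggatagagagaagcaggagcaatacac

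In Nfkbia the kB consensus lay from 29 to 20 bases before the start, and a GGAANTTCC match overlapped it. Tnfaip3 had a kB consensus match from 125 to 116 bases and another from 12 to 3 bases before its start, with GGAANTTCC from 24 to 16 bases before it. The first Nfkb2 window had overlapping matches from 39 to 29 bases and a further one from 11 to 2 bases before the start. Icam1 held a GGAANTTCC match from 153 to 145 bases before its start and no kB consensus match. No match was found in the windows of Sele and Birc3, which says only that these letters are not there. Of all 32851 RefSeq promoter windows of that length, 4.51% held the kB consensus, 0.928% held GGAANTTCC and 5.15% held either; of the 6 matched genes, 4 held either. A match describes letters and is not evidence of binding in these livers.

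**Figure D1:**
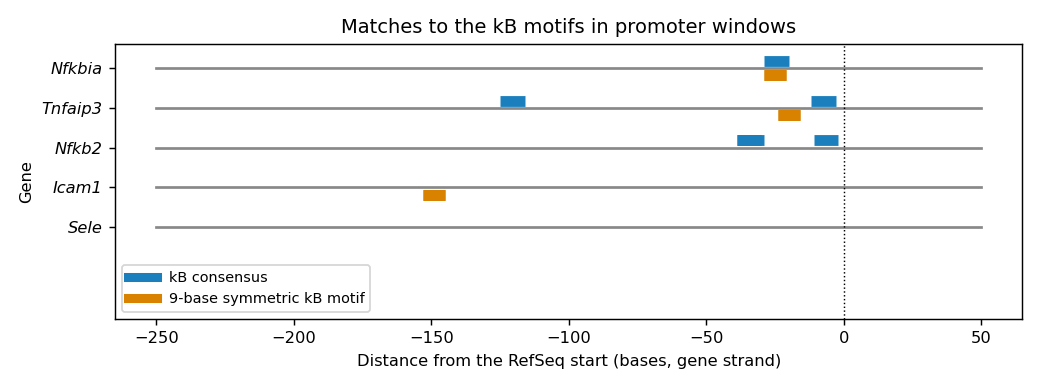
Places of the motif matches in the 5 promoter windows printed here, with distance from the RefSeq start in bases on the x axis and a line per gene; blue boxes are kB consensus matches and orange boxes are GGAANTTCC matches. Nfkbia, Tnfaip3 and Nfkb2 have matches close to the start, Icam1 has one from 153 to 145 bases before it, and Sele has none.

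Each library held between 15241261 and 18691736 counted reads. A pair of libraries stood apart for these genes: 50 mg/kg replicate 3 had the highest level of all 9 libraries in 10 of 10 genes, and NaCl replicate 1 had the next highest in 10 of 10. Over all tested genes that order was seen in 386 of 12557, or 3.07%. The summed level of 8 neutrophil and monocyte markers was 213 CPM (reads scaled to a common library size with TMM, the trimmed mean of M-values) in 50 mg/kg replicate 3, 37.0 CPM in NaCl replicate 1 and 9.04 to 24.5 CPM in the other 7 libraries. S100a9, S100a8, Csf3r, Retnlg and Cxcr2 carried that sum in 50 mg/kg replicate 3. The 2 monocyte markers went opposite ways there. Ccr2 had its lowest level of the 9 libraries, 0.545 CPM. Ly6c2 had the highest level of its group, 3.27 CPM, just under its highest level after 25 mg/kg, 3.30 CPM. The defining neutrophil marker Ly6g was at 0 in NaCl replicate 2 and in 25 mg/kg replicates 2 and 3. It was highest, at 0.668 CPM, in 50 mg/kg replicate 1 and next highest, at 0.545 CPM (8 reads), in 50 mg/kg replicate 3. The part of these cells in the levels below was not tested. Summed endothelial markers, 245 to 380.1 CPM, and hepatocyte markers, 108006 to 146545 CPM, placed both libraries within the range of the other 7. Single endothelial markers did not move together. Lyve1 was highest in 50 mg/kg replicate 3 (48.8 CPM) and next highest in NaCl replicate 1 (18.4 CPM), as the 10 genes were. Cdh5 was also highest in 50 mg/kg replicate 3 (95.9 CPM), and Stab2 was highest in NaCl replicate 1 (116 CPM). Clec4g had its lowest levels in that pair of libraries (42.1 and 42.7 CPM). Kdr (20.5 CPM) and Fcgr2b (25.2 CPM) were lowest in 50 mg/kg replicate 3, and Pecam1 and Tek in 50 mg/kg replicate 2. The part of endothelial cells was not tested.

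The feedback regulators come first. Nfkbia codes for IkB-alpha, which rebinds NF-kB and carries it out of the nucleus (ENSMUSG00000021025, chr12:55489410-55492647, minus strand; gene coordinates here and below are GRCm38). Its level was 224, 50.1 and 60.1 CPM in NaCl replicates 1 to 3, 143, 55.1 and 58.8 CPM after 25 mg/kg, and 118, 109.9 and 495 CPM after 50 mg/kg. All 3 libraries at 50 mg/kg lay above NaCl replicates 2 and 3, but NaCl replicate 1 lay above the lower 2 of them, so the groups overlapped. Nfkbia had the highest minimum among the 10 genes on the per-length scale, and its highest level was 9.88 times its lowest.

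Tnfaip3 codes for A20, an enzyme that edits ubiquitin chains and shuts signalling down above IKK (ENSMUSG00000019850, chr10:19000910-19015657, minus). It was read at 249, 6.06 and 19.6 CPM with NaCl, at 43.3, 5.98 and 10.3 CPM after 25 mg/kg, and at 44.1, 29.2 and 377 CPM after 50 mg/kg. A range of 41.1-fold within the NaCl group was wider than that within either dose. The 7 libraries other than the highest pair spanned 7.37-fold.

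Nfkbiz codes for IkB-zeta, a nuclear IkB-like protein that helps switch on late target genes (ENSMUSG00000035356, chr16:55811375-55838899, minus). NaCl libraries held 174, 32.0 and 61.6 CPM of it, 25 mg/kg libraries 48.3, 14.2 and 12.9 CPM, and 50 mg/kg libraries 30.9, 58.5 and 293 CPM. Replicates 2 and 3 of 25 mg/kg were the lowest of all 9. Birc3 codes for cIAP2, a ubiquitin ligase of the tumour necrosis factor receptor complex that keeps cells alive (ENSMUSG00000032000, chr9:7848699-7873186, minus). It stood at 84.1, 18.1 and 20.3 CPM with NaCl, at 24.5, 14.2 and 17.2 CPM after 25 mg/kg, and at 35.1, 29.6 and 238 CPM after 50 mg/kg. Every 50 mg/kg library exceeded every 25 mg/kg library, while the NaCl group overlapped with both.

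The subunits were less alike. Nfkb2 codes for p100, the precursor of p52 in the slower, non-canonical branch (ENSMUSG00000025225, chr19:46304320-46312385, plus). Its CPM were 108, 14.3 and 16.8 with NaCl, 31.5, 13.4 and 20.5 after 25 mg/kg, and 60.4, 22.7 and 232 after 50 mg/kg. Relb codes for the partner of p52 in that branch (ENSMUSG00000002983, chr7:19606217-19629438, minus), and its CPM were 54.3, 5.46 and 9.99, then 15.6, 5.58 and 6.71, then 29.2, 7.73 and 118 in the same order of groups. In both genes replicate 1 of 25 mg/kg and replicate 1 of 50 mg/kg were the highest after the leading pair of libraries.

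Nfkb1 codes for p105, the precursor of p50 in the canonical branch (ENSMUSG00000028163, chr3:135584655-135691547, minus). It was read at 92.8, 37.2 and 43.9 CPM with NaCl, at 27.9, 25.7 and 21.4 CPM after 25 mg/kg, and at 41.2, 18.9 and 113 CPM after 50 mg/kg. All 3 libraries at 25 mg/kg lay below all 3 NaCl libraries, and the 50 mg/kg group covered both ranges. Nfkb1 overlaps Gm43430, and Nfkb2 overlaps AC114539.1 and Psd; the strand setting of the counting is not given in the sources used here, so reads of overlapping genes cannot be told apart.

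The adhesion molecules had both the widest and the narrowest ranges. Icam1 codes for a ligand of leukocyte integrins (ENSMUSG00000037405, chr9:21015985-21028817, plus; the antisense gene Gm47079 overlaps it). Its level was 651, 59.4 and 75.3 CPM with NaCl, 81.8, 22.1 and 34.3 CPM after 25 mg/kg, and 182, 79.9 and 1629.9 CPM after 50 mg/kg, a span of 73.6-fold. Without the leading pair of libraries the span was 8.24-fold.

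Sele codes for E-selectin, which activated endothelium makes to let leukocytes roll (ENSMUSG00000026582, chr1:164048234-164057677, plus). It was counted in 288, 3 and 7 reads with NaCl, in 19, 5 and 10 reads after 25 mg/kg, and in 55, 47 and 833 reads after 50 mg/kg. These are 19.4, 0.152 and 0.351 CPM, then 1.08, 0.332 and 0.541 CPM, then 3.34, 3.05 and 56.8 CPM. All 3 libraries at 50 mg/kg exceeded all 3 at 25 mg/kg and NaCl replicates 2 and 3; NaCl replicate 1 alone was high in its group.

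Vcam1 codes for the endothelial ligand of the integrin VLA-4 (ENSMUSG00000027962, chr3:116109949-116129688, minus; the antisense gene Gm43109 overlaps it). It was read at 28.4, 13.4 and 19.8 CPM with NaCl, at 10.2, 21.7 and 18.9 CPM after 25 mg/kg, and at 19.1, 9.81 and 40.7 CPM after 50 mg/kg. Its span over the 9 libraries was 4.15-fold, the smallest of the 10 genes, and all 3 groups overlapped.

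**Figure D2:**
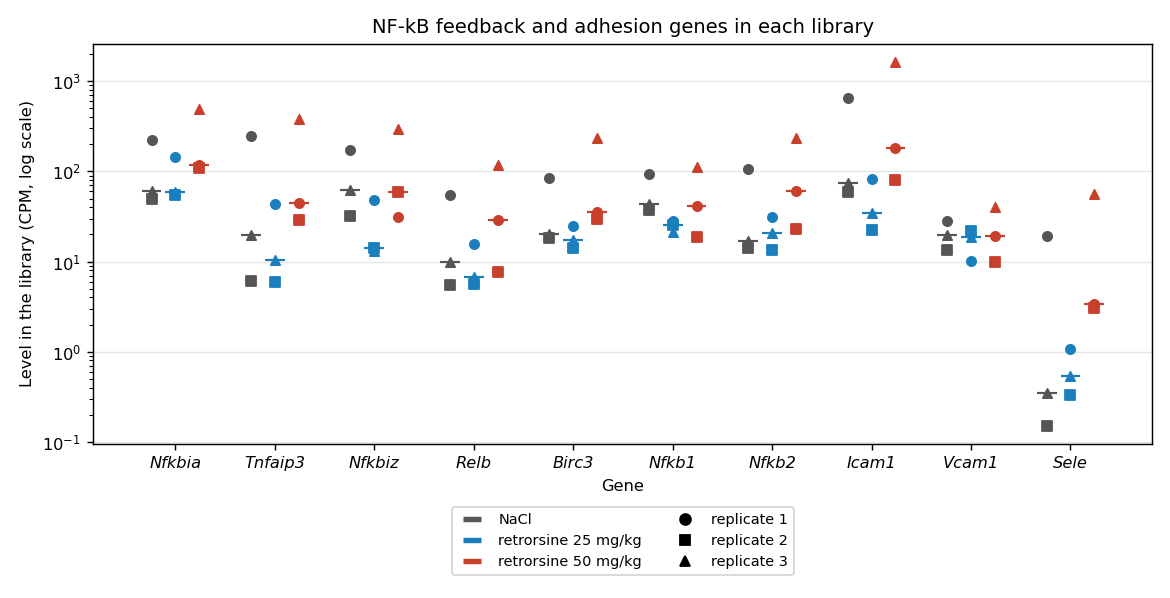
Level of each of the 10 genes (x axis) in CPM on a log y axis, with a point per library, a colour per group, a shape per replicate number and a short line at each group's median. For every gene 50 mg/kg replicate 3 is the highest point and NaCl replicate 1 the next, and no 25 mg/kg library reaches either.

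With 25 mg/kg against NaCl, none of the 10 genes passed edgeR's quasi-likelihood test at an adjusted p of 0.05, against 13.5% of all tested genes (5.9% higher and 7.56% lower). None had an unadjusted p under 0.05, where 28.6% of all tested genes did (DESeq2 gave 1, limma-voom 0), and DESeq2 and limma-voom called 0 as well. All 10 log2 fold changes were below 0, with a median of -1.26 against 0.01 over all tested genes. Sele had the largest, -3.29 ± 1.77 (SE; adjusted p = 0.256; 6.62 ± 11.0 CPM with NaCl and 0.652 ± 0.386 CPM after 25 mg/kg, mean ± SD, n = 3 each), followed by Icam1 at -2.50 ± 1.22 (adjusted p = 0.21). Nfkb1, whose groups did not overlap, was at -1.21 ± 0.57 (adjusted p = 0.193; 58.0 ± 30.3 against 25.0 ± 3.33 CPM). Groups that did not overlap were found in 1 of the 10 genes and in 36.5% of all tested genes.

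That common sign rested on NaCl replicate 1. Without NaCl replicate 1 and 50 mg/kg replicate 3, 6 of the 10 log2 fold changes were above 0 and 4 below, with a median of 0.15 and 0 calls. Nfkbia turned from -0.38 to 0.64, Tnfaip3 from -2.20 to 0.64 and Sele from -3.29 to 1.36. Without NaCl replicate 1 alone the split was also 6 above and 4 below, and leaving out any other single library left all 10 below 0. Nfkbiz (-0.89), Nfkb1 (-0.70), Icam1 (-0.54) and Birc3 (-0.04) stayed below 0 without both libraries.

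With 50 mg/kg against NaCl, 0 of the 10 genes passed, where 15.1% of all tested genes did (7.09% higher and 8.01% lower). None had an unadjusted p under 0.05, against 31.2% of all tested genes, and DESeq2 and limma-voom also called 0. Log2 fold changes were above 0 for 9 genes and -0.01 ± 0.56 for Nfkb1 (0.01 with DESeq2's size factors), with a median of 1.14 against 0.00 over all tested genes. Nfkbia was at 1.11 ± 0.73 (adjusted p = 0.332; 111.6 ± 97.9 with NaCl and 241 ± 220 CPM after 50 mg/kg, mean ± SD, n = 3 each; 95% interval of the log2 change -0.52 to 2.75). Icam1 was at 1.27 ± 1.17 (adjusted p = 0.496, interval -1.34 to 3.88). In no gene did the 2 groups stay apart, against 35% of all tested genes.

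The sign again followed the libraries kept. Without 50 mg/kg replicate 3, 9 of 10 log2 fold changes were below 0, with a median of -0.72; without NaCl replicate 1, all 10 were above 0, with a median of 2.56. Leaving out both gave 7 above and 3 below, with a median of 1.01. In that last comparison, of 2 libraries against 2, Sele was at a log2 fold change of 3.63 ± 0.70, against 1.69 ± 1.50 (adjusted p = 0.478) with all libraries. The libraries left out are the ones in which these genes, Sele included, were highest, so that value is a description and its p is no test of the dose. Both kept 50 mg/kg libraries held 47 or more Sele reads and both kept NaCl libraries 7 or fewer. Tnfaip3 (1.52), Nfkb2 (1.42), Relb (1.26) and Nfkbia (1.05) were above 0 there.

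With 50 mg/kg against 25 mg/kg, all 10 log2 fold changes were above 0, with a median of 2.39 against -0.01 over all tested genes, and 0 passed. edgeR called 0.00796% of all tested genes in that comparison, a single gene, and DESeq2 and limma-voom called 0 of the 10. Unadjusted p was under 0.05 for 6 of the 10 genes, Icam1 (0.0152), Birc3 (0.0182), Sele (0.0215), Nfkbiz (0.0299), Nfkb2 (0.0375) and Relb (0.0398), and for 8.59% of all tested genes; DESeq2 gave 5 of the 10 and limma-voom 1. The adjusted p of these 6 in edgeR's test was between 0.546 and 0.559. Sele was at 4.98 ± 1.82 and Icam1 at 3.77 ± 1.29. Sele and Birc3 were the 2 genes whose groups did not overlap, which held for 11.4% of all tested genes.

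Without the leading pair of libraries the differences between the doses were smaller: the median was 0.86, 9 of 10 values were above 0 and 0 passed. Sele was at 2.27, Icam1 at 1.51 and Vcam1 at -0.22. The comparisons of both doses with NaCl share the NaCl libraries, and each comparison here shares a group with the other 2, so their signs are not independent.

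**Figure D3:**
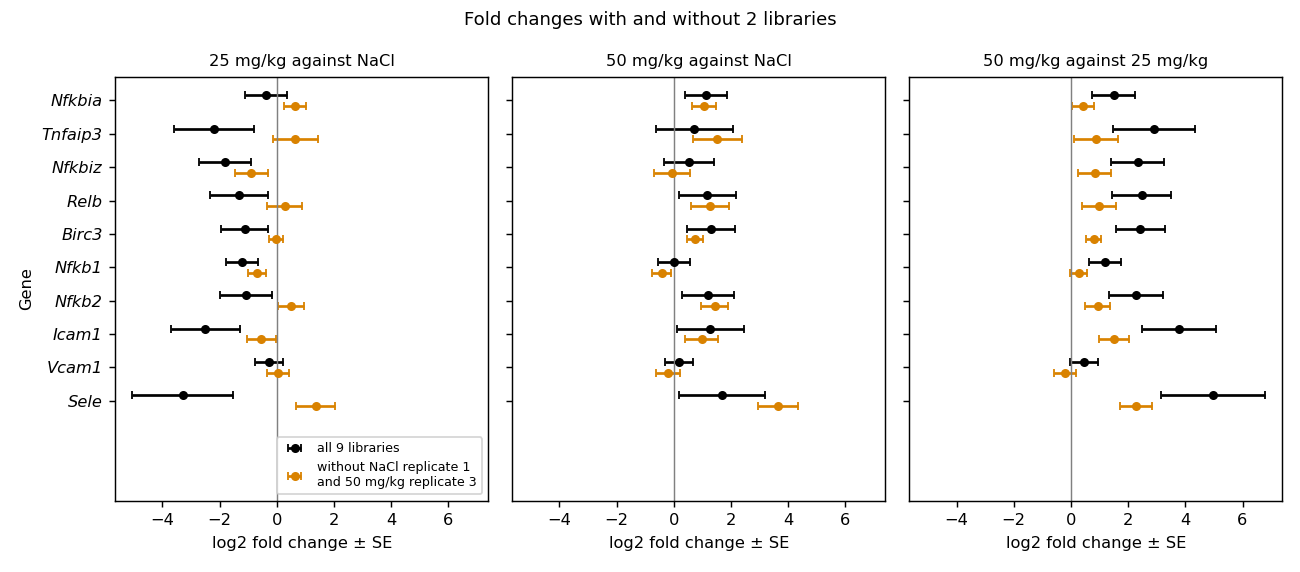
Log2 fold change ± SE of the 10 genes in the 3 comparisons, with all 9 libraries in black and without NaCl replicate 1 and 50 mg/kg replicate 3 in orange. At 25 mg/kg the black points all lie left of 0 and the orange ones on both sides, with Sele moving from -3.29 to 1.36.

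Spread within groups was large for these genes. The SD of log2 CPM within groups had a median of 1.37 over the 10 genes and of 0.33 over all tested genes. Sele (2.41), Tnfaip3 (2.12) and Icam1 (1.79) varied most, at or above the 99.3 percentile of all tested genes. Vcam1 (0.74) and Nfkb1 (0.85) varied least, at the 89.1 and 92.6 percentile. Differences between groups held a median of 30% of the variance of the 10 genes, from 4.66% for Vcam1 to 39.6% for Icam1, and of 41.8% over all tested genes. Part of such a share arises without any effect of the group, because means of 3 libraries differ by themselves. The median SE of a log2 fold change was 0.91, 0.90 and 0.93 in the 3 comparisons, against 0.27 over all tested genes.

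**Figure D4:**
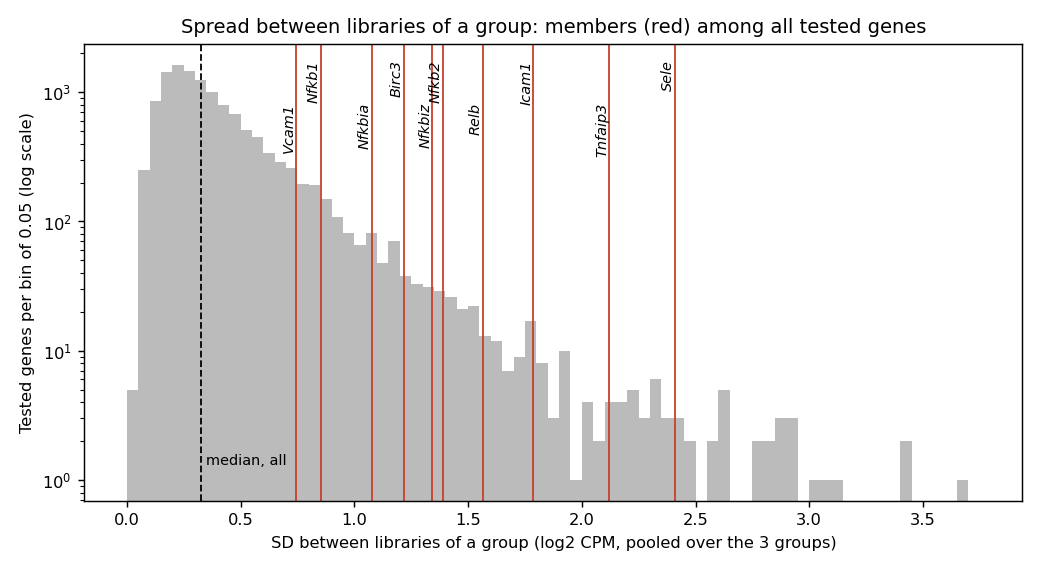
Histogram of the within-group SD of log2 CPM (x axis) over all tested genes, with the number of genes per bin on a log y axis, a dashed line at the median of all tested genes (0.33) and a red line for each of the 10 genes. All 10 red lines lie right of the dashed line, from Vcam1 at 0.74 to Sele at 2.41.

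The 10 genes did not all vary as 1 block. In the 7 libraries without the leading pair, which span all 3 groups and share tissue and preparation, 24 of the 45 gene pairs had a Pearson r over 0.5 and 10 had an r under 0. Nfkbia, Tnfaip3, Relb, Birc3, Nfkb2, Icam1 and Sele, grouped after their values were seen, gave an r of 0.66 to 0.94 in their 21 pairs, with a median of 0.83 (Spearman's rho 0.79 to 0.96, median 0.89, n = 7 libraries). Relb and Nfkb2, partners in the non-canonical branch, had an r of 0.94. The median r with the other genes was 0.35 for Nfkbiz, 0.18 for Nfkb1 and -0.35 for Vcam1. These values are given as a description.

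Of the tested genes outside the set, Dusp2, Nfkbie, Ptafr, Pfkfb3, Samsn1 and Cxcl10 had the patterns most like the mean of the 10 over the 9 libraries, with a Pearson r of 0.97 to 0.99. Over the 7 libraries without the leading pair, r was 0.92 for Dusp2, a phosphatase of MAP kinases, 0.88 for Nfkbie, which codes for IkB-epsilon, and 0.91 for Pfkfb3, an enzyme that sets the rate of glycolysis. It was 0.86 for Ptafr, the receptor of platelet-activating factor, and 0.82 for both Samsn1 and Cxcl10, a chemokine. All 6 had their highest level in 50 mg/kg replicate 3, where Cxcl10 reached 895 CPM from a lowest level of 2.83 CPM. None of the 6 passed edgeR's test, DESeq2 or limma-voom in any comparison. Between the doses 3 had an unadjusted p under 0.05 in edgeR's test, beside 8.59% of all tested genes. DESeq2 gave 3 and limma-voom 0. The 6 were picked for likeness to the 10 genes over the same libraries, so these counts largely follow from that choice and are no separate support.

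Levels of different genes were compared per length, as the authors' FPKM. The median over 9 libraries was 67.5 FPKM for Nfkbia, 18.4 for Icam1, 9.66 for Nfkbiz, 4.91 for Birc3, 4.90 for Nfkb2, 4 for Tnfaip3, 3.30 for Nfkb1, 2.74 for Relb, 2.27 for Vcam1 and 0.372 for Sele. Nfkbia exceeded Icam1 in 7 of 9 libraries, and Icam1 exceeded Nfkbiz in 9 of 9. Some neighbours in that order did not differ beyond their spread: Birc3 exceeded Nfkb2 in 3 of 9 libraries, with a mean log2 ratio of -0.20 ± 0.39 (SD), Tnfaip3 exceeded Nfkb1 in 5 of 9 and Nfkb1 exceeded Relb in 4 of 9. Genes further apart did: Nfkb2 exceeded Relb in 9 of 9 libraries, with a mean log2 ratio of 0.94 ± 0.29, and Nfkb1 in 9 of 9, while Birc3 exceeded Nfkb1 in 9 of 9 and Relb in 8 of 9. Tnfaip3 exceeded Relb in 5 of 9.

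Of 91 other genes of the pathway, 81 were tested. Their share past the threshold was below that of all tested genes with all 9 libraries, but not in every fit without libraries. With 25 mg/kg, 6 rose and 2 fell, or 9.88% against 13.5% of all tested genes. With 50 mg/kg, also 6 rose and 2 fell, or 9.88% against 15.1%. Between the doses edgeR, DESeq2 and limma-voom called 0. Unadjusted p in edgeR's test was under 0.05 for 23, 17 and 19 of the 81 in that order of comparisons. The shares of all tested genes were 28.6%, 31.2% and 8.59%. The median log2 fold changes over the 81 were -0.24, 0.41 and 0.39. The called genes were a subunit, a kinase regulator, adaptors, receptors and brakes; 0 of 5 tested ligands, 0 of 13 other targets and 0 of 10 other adhesion genes passed edgeR's test, DESeq2 or limma-voom in any comparison. In edgeR's test and the same order of comparisons, 0, 1 and 1 ligands had an unadjusted p under 0.05. So did 3, 0 and 9 other targets and 2, 2 and 2 other adhesion genes, beside the same shares of all tested genes. The 8 calls at 25 mg/kg became 5 when replicate 2 or 3 of NaCl or replicate 2 of that dose was left out. They became 4 when replicate 3 of that dose was left out. Over all tested genes, 1690 calls of 12557 became 1068 of 12725, 751 of 12773, 1561 of 12813 and 626 of 12743 in those fits. Without replicate 3 of the higher dose the pathway calls were 13 of 81, beside 1850 of 12793 tested genes. The 8 calls at 50 mg/kg became 5 when replicate 1 of NaCl or of that dose was left out, 4 when NaCl replicate 2 was and 3 when NaCl replicate 3 was. Over all tested genes, 1896 calls of 12557 became 1092 of 12830, 1388 of 12799, 1138 of 12725 and 700 of 12773 in the same order. Calls thus fell over all tested genes as well in each of these fits.

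Rela codes for p65, the main activating subunit. It was read at 152, 65.3 and 73.0 CPM with NaCl, at 271, 180.2 and 231 CPM after 25 mg/kg, and at 296, 213 and 428 CPM after 50 mg/kg. Every retrorsine library exceeded every NaCl library. Rela rose by a log2 fold change of 1.23 ± 0.36 (adjusted p = 0.0481) and 1.69 ± 0.36 (adjusted p = 0.0148). The call at 25 mg/kg was lost in 7 of 20 alternatives, 6 of them leaving out 1 library, with an adjusted p of up to 0.159, and that at 50 mg/kg without NaCl replicate 2 or 3, with up to 0.0651.

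Tnfrsf12a codes for Fn14, the receptor of TWEAK. Its CPM were 22.1, 12.2 and 13.0 with NaCl, 234, 196 and 235 after 25 mg/kg, and 257, 202 and 167 after 50 mg/kg. The leading pair of libraries for the 10 genes was not the leading pair here, and 50 mg/kg replicate 3 was the lowest of the treated libraries. Tnfrsf12a rose by 3.81 ± 0.27 (adjusted p = 0.000376) and 3.73 ± 0.27 (adjusted p = 0.000336) on the log2 scale.

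Ticam1 codes for TRIF, an adaptor of Toll-like receptors. It held 29.1, 23.9 and 25.5 CPM with NaCl, 46.8, 47.1 and 45.4 CPM after 25 mg/kg, and 50.1, 42.8 and 49.8 CPM after 50 mg/kg. It rose by 0.83 ± 0.14 (adjusted p = 0.00673) and 0.86 ± 0.14 (adjusted p = 0.00569). Both genes kept their calls at both doses in all 20 alternatives.

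Other calls were smaller or less stable. The deubiquitinase gene Otud7b rose by 1.55 ± 0.30 (adjusted p = 0.0109) and 1.05 ± 0.30 (adjusted p = 0.0425), and Rnf11, which codes for a partner of A20, by 0.84 ± 0.17 (adjusted p = 0.0127) and 0.61 ± 0.17 (adjusted p = 0.0394). Both lost the call at 50 mg/kg in 13 of 20 alternatives and at 25 mg/kg in 0. Ikbkg, the scaffold NEMO of the IKK complex, rose by 0.77 ± 0.17 at 25 mg/kg (adjusted p = 0.0185), and Tnfrsf1b, a tumour necrosis factor receptor, by 1.34 ± 0.29 at 50 mg/kg (adjusted p = 0.0148). Traf3, an adaptor that restrains the non-canonical branch, fell by 1.27 ± 0.29 on the log2 scale at 25 mg/kg (adjusted p = 0.0213). Itch, a ubiquitin ligase that works with A20, fell by 0.99 ± 0.21 at 50 mg/kg (adjusted p = 0.0154). Ltbr, the lymphotoxin beta receptor, fell by 0.62 ± 0.17 (adjusted p = 0.0392) and 0.58 ± 0.17 (adjusted p = 0.045). Ltbr lost its call in 9 and 11 of the 20 alternatives, Itch in 5, Ikbkg and Traf3 in 4 each, and Tnfrsf1b in 2.

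**Figure D5:**
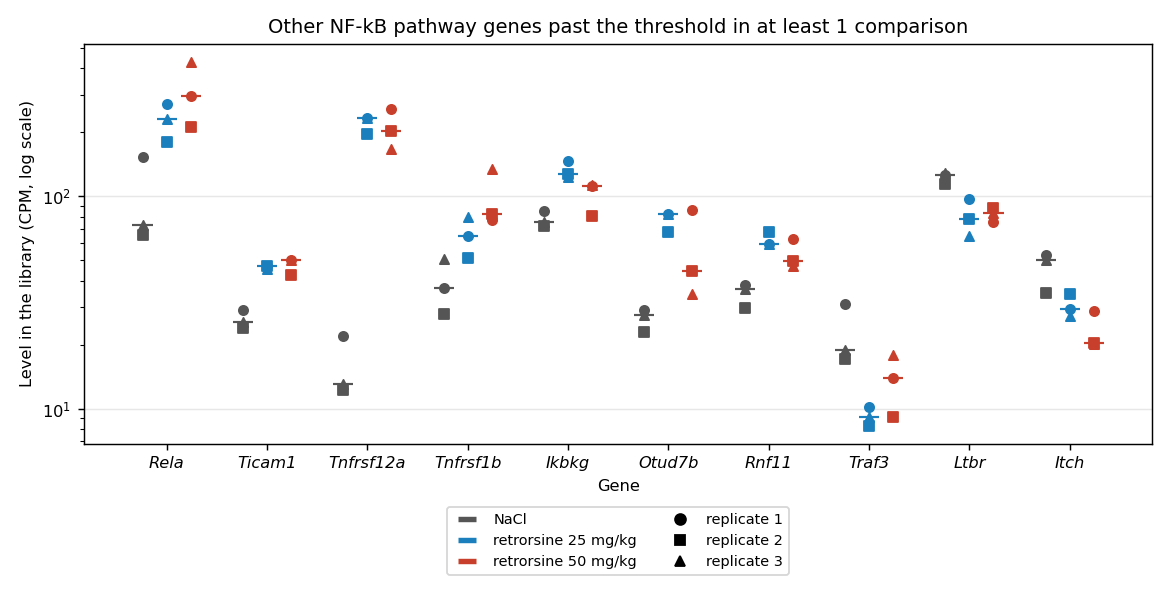
Level in CPM on a log y axis of the 10 pathway genes outside the set that passed the test in at least 1 comparison, with a point per library, a colour per group, a shape per replicate number and a short line at each group's median. Tnfrsf12a, Ticam1 and Rela are higher in each retrorsine library than in any NaCl library, while Ltbr is lower in each.

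The ligands that start the canonical branch were read at low levels. Tnf was at 3.23, 0.404 and 0.753 CPM with NaCl, 1.65, 0.266 and 1.35 CPM after 25 mg/kg, and 4.01, 1.75 and 7.63 CPM after 50 mg/kg. Il1b was at 21.0, 6.87 and 10.1 CPM, then 12.5, 4.59 and 6.82 CPM, then 8.87, 9.55 and 34.1 CPM. In both, 50 mg/kg replicate 3 was the highest library, as for the 10 genes, while for Tnf NaCl replicate 1 came after 50 mg/kg replicate 1. Il1a stayed between 2.73 and 7.58 CPM in all 9 libraries. Selp, which codes for P-selectin, was at 5.18, 0.808 and 0.602 CPM with NaCl, 1.48, 1.40 and 2.00 CPM after 25 mg/kg, and 2.37, 4.03 and 31.1 CPM after 50 mg/kg. Its log2 fold change at 50 mg/kg against NaCl was 2.54 (adjusted p = 0.126); leaving out 50 mg/kg replicate 3 gave 0.57, leaving out NaCl replicate 1 gave 4.13, and it ran from 0.57 to 4.55 over the 20 alternatives (adjusted p 0.0324 to 0.685). Its leading pair of libraries was the same as for Sele.

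None of 8 endothelial, 8 Kupffer cell and macrophage, 7 tested neutrophil and monocyte and 6 stellate cell and fibroblast markers passed edgeR's test in any comparison. Between the doses 4, 3, 5 and 2 of them had an unadjusted p under 0.05, beside 8.59% of all tested genes. At 25 mg/kg against NaCl 0, 2, 1 and 0 did (28.6% of all), and at 50 mg/kg against NaCl 3, 0, 0 and 2 (31.2%). Between the doses, the endothelial, Kupffer cell and stellate cell markers counted here were lower at 50 mg/kg, and the neutrophil markers were higher. Against NaCl, the markers counted at 25 mg/kg were higher and those counted at 50 mg/kg were lower. The limma-voom fit called 0 of these markers. DESeq2 called the endothelial marker Kdr and the stellate cell marker Reln at 50 mg/kg against NaCl. Of 3 tested lymphocyte markers, Cd3e and Cd79a rose at 50 mg/kg; of 6 hepatocyte markers, Serpina1c fell at 25 mg/kg, where all 6 exocrine pancreas markers fell as well. DESeq2 made the same calls in those comparisons and also called Cd3e between the doses. The limma-voom fit called Cd3e alone of the lymphocyte markers and 0 of the pancreas markers at 25 mg/kg. It called the pancreas marker Ctrb1 at 50 mg/kg against NaCl. Cd79a was at 5.52 CPM in 50 mg/kg replicate 2 and at 0.425 and 1.23 CPM in replicates 1 and 3. In 50 mg/kg replicate 3, S100a9 was at 103 CPM, S100a8 at 39.2 CPM and Csf3r at 33.5 CPM; in NaCl replicate 1, S100a9 was at 13.0 CPM. Summed Kupffer cell markers were 291 to 393 CPM with NaCl, 389 to 553 CPM after 25 mg/kg and 221 to 596 CPM after 50 mg/kg, and neither library of the leading pair was outside the range of the others. Exocrine pancreas markers reached 3944 CPM in NaCl replicate 1, 599 CPM in NaCl replicate 2, 152 CPM in NaCl replicate 3 and 216 CPM in 50 mg/kg replicate 2. They were 0.114 to 1.03 CPM after 25 mg/kg, 0.547 CPM in 50 mg/kg replicate 1 and 1.29 CPM in 50 mg/kg replicate 3. The part of pancreas RNA in the values of NaCl replicate 1 was not tested.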

How the data were processed

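Poly(A) RNA of 9 liver libraries in 3 groups was sequenced. The submitters' processing notes name HISAT2 and GRCm38 with no version; which tool counted the reads, on which annotation and strand, is not given in the sources used here. The deposited table holds read counts made by the authors, which are not normalized, and their FPKM, which equal count over length and library total within 1% in 100% of values. Counts were tested in R 4.3.3 with edgeR 4.0.16: filterByExpr left 12557 of 21936 genes, TMM scaled the libraries, and the quasi-likelihood F test used all 9 libraries, with a mean for each group and 6 residual degrees of freedom. P-values were adjusted by Benjamini-Hochberg over all tested genes, with a threshold of 0.05; an SE was derived as the log2 change divided by the root of F. CPM levels use TMM-scaled totals, and log2 CPM used a prior count of 2; folds of low genes are understated on that scale. FPKM was used only to order genes. Libraries of a group differed beyond the noise of read sampling, which does not show that they are separate animals. Each was treated as 1 sample. Alternatives were DESeq2 1.42.0, limma-voom (limma 3.58.1), other scalings and filters, a replicate block, and fits without libraries. The 10 genes, the pathway and marker lists and the left-out pairs were chosen with earlier results of these data known. Named pathway genes were those past the threshold, the ligands Tnf, Il1a and Il1b, and otherwise the 2 lowest p per role and comparison; the 6 genes most like the set were ranked by Pearson r. Counting error and PCR duplicates without molecular identifiers limit the precision of low genes such as Sele.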

Additional observations from a re-analysis of the deposited data

How the results depend on the processing

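The calls of the 10 genes stayed at 0 in all 3 comparisons under other scalings, filters, DESeq2 and limma-voom. The exceptions were 1 call (Nfkb1, lower, adjusted p = 0.0408) at 25 mg/kg in an edgeR fit with only the 2 groups compared, and 0 to 1 calls at 50 mg/kg against NaCl when 1 library was left out (Sele without NaCl replicate 1, adjusted p = 0.0453). Leaving out NaCl replicate 1 with 50 mg/kg replicate 3 gave 1 call at 50 mg/kg, and leaving out NaCl replicate 1 with 50 mg/kg replicate 2 gave 3 (Relb, Nfkb2 and Sele). NaCl replicate 1 and 50 mg/kg replicate 3 were known to hold the highest levels of these genes, so calls made without either of them are no test of the dose. Fits without NaCl replicate 1 that kept 50 mg/kg replicate 3, among them the fit with 3 calls, favoured a rise in advance. All tested genes had 1092 calls of 12830 without NaCl replicate 1. They had 1146 of 12840 without it and 50 mg/kg replicate 3, and 653 of 12820 without it and 50 mg/kg replicate 2. Selp at 50 mg/kg against NaCl passed without either pair (lowest adjusted p = 0.0324) and in no other alternative. Of the other pathway genes, 8 were called at each dose. At 25 mg/kg there were 4 to 13 when libraries were left out. At 50 mg/kg there were 3 to 9 without 1 library and 5 with the replicate block. There were 13 of 81 without NaCl replicate 1 and 50 mg/kg replicate 2, beside 653 of 12820 tested genes. Over all genes, 1690 calls at 25 mg/kg became 626 to 1850 without 1 library, 975 without NaCl replicate 1 and 50 mg/kg replicate 2, and 1108 with the block. The 1896 calls at 50 mg/kg became 700 to 1921, 653 and 1229, and 1146 without NaCl replicate 1 and 50 mg/kg replicate 3. Between the doses edgeR called 1 gene, 0 to 4 when libraries were left out and 0 with library totals, the block or only the 2 groups compared, and DESeq2 called 71.

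Signs turned mostly with the libraries kept. Over the fits without 1 library or without either pair, log2 fold changes at 25 mg/kg ranged from -0.97 to 0.64 for Nfkbia, -3.49 to 0.64 for Tnfaip3, -1.91 to 0.27 for Relb, -1.51 to 0.49 for Nfkb2, -0.51 to 0.03 for Vcam1, -3.88 to 1.37 for Sele (1.36 without NaCl replicate 1 and 50 mg/kg replicate 3), -0.83 to 0.92 for Tnf and -0.09 to 0.65 for Il1a. At 50 mg/kg against NaCl they ranged from -1.32 to 4.04 for Tnfaip3, -1 to 1.80 for Nfkbiz, -0.33 to 3.25 for Relb, -0.34 to 2.83 for Birc3, -0.95 to 0.92 for Nfkb1, -0.15 to 3.24 for Nfkb2, -1 to 3.75 for Icam1, -0.50 to 0.85 for Vcam1, -1.03 to 6.86 for Sele, -0.13 to 0.54 for Il1a and -0.45 to 1.34 for Il1b. Without NaCl replicate 1 and 50 mg/kg replicate 3, Nfkbiz was at -0.06 and Vcam1 at -0.20. Nfkb1 was at 0.01 with DESeq2's size factors and with its test. Between the doses Vcam1 ranged from -0.22 to 0.82. The cause was not tested beyond the libraries left out.

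The labels state no pairing by replicate number, and the values gave no sign of it. Correlations of deviations between libraries with the same number ran from -0.23 to 0.14, and those with other numbers from -0.25 to 0.30. NaCl replicate 1 was closest to 50 mg/kg replicate 3 (0.30), not to its own number. These correlations cannot exclude a batch shared by number. With the replicate block 0 of the 10 genes were called in each comparison. The 3 libraries a group and a spread of this size limit what could be called: the 95% interval for Icam1 at 50 mg/kg against NaCl ran from -1.34 to 3.88, and Sele rested on 3 reads in 1 NaCl library.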
